A study of Mus musculus with 8 samples.

Results

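The cytosolic ribosomal protein genes encode the proteins that, with the ribosomal RNAs, make up the large and the small subunit of the ribosome in the cytoplasm. They were taken from the deposited table of raw counts as the rows whose Ensembl ID carries a symbol made of Rpl or Rps and a number, with at most 1 trailing letter, or the symbols Rpsa and Rplp0 to Rplp2, and whose counts over the 8 libraries sum to at least 80. The pattern found 83 of the 55335 genes in the table, of which 51 belong to the large subunit (Rpl) and 32 to the small subunit (Rps). No gene that matched the pattern was lost to the minimum of 80 counts, and all 83 passed the filter on low counts, which left 16504 genes for the tests. Of the 83 genes, 80 are annotated as protein coding and 3 as pseudogenes (Rpl32l, Rpl6l and Rps4l). The pattern also admits the paralogs Rpl3l, Rpl10l, Rpl39l, Rps27l and Rps4l, and it leaves out genes such as Rps3a1, Fau and Rack1, which also encode ribosomal components.

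The libraries come from E14, a line of mouse embryonic stem cells (ESCs) grown on gelatin. Each of the 4 groups had 2 biological duplicates, infected with lentivirus that carried a control shRNA or an shRNA against Sox2, Cdk9 or Hnrnpk, the gene for hnRNPK. Sox2 encodes a transcription factor of pluripotent cells, Cdk9 the kinase of the elongation factor P-TEFb, and Hnrnpk an RNA-binding protein. The control cells therefore carried a vector and an shRNA as well, the infected cells were a population and not a clone, and which of the shRNAs against a gene each library received is not stated. PolyA RNA was sequenced, and the libraries held between 16709201 and 17719366 counts.

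Ribosomal protein mRNAs are among the most abundant mRNAs of a growing cell, and the proteins are needed in equal numbers, since each ribosome carries a single copy of nearly all of them. In mammals most of these mRNAs start with a cytosine and a run of pyrimidines, the terminal oligopyrimidine or TOP motif, through which their translation follows mTOR signalling. The genes are scattered over the genome, many hold small nucleolar RNAs (snoRNAs) in their introns, and their mRNAs have left many processed pseudogenes, which complicates the counting of reads.

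The start sites were examined first, because they carry the feature by which these mRNAs are known. RefSeq promoter sequences of GRCm38.p6, the assembly that mm10 names, were found for 61 of the 83 genes (73 promoters). The sequences below are those of genes that the comparisons return to, with Rpl15 added for its long run. Each shows 15 bases before the RefSeq start and 15 bases from it, on the strand of the gene, and capitals mark the pyrimidine run that a cytosine within 5 bases of the start opens, read downstream from the qualifying cytosine nearest to the start, where the run is at least 5 bases long. Pyrimidines before that cytosine are left in lower case.
Rpl15 (chr14:18270972-18271001, − strand): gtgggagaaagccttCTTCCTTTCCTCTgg
Rps18 (chr17:33955651-33955680, − strand): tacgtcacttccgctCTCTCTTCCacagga
Rps6 (chr4:86857353-86857382, − strand): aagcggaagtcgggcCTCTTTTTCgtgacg
Rps27 (chr3:90213634-90213663, − strand): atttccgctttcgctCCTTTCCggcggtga
Rpl14 (chr9:120571502-120571531, + strand): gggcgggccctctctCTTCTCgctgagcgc
Rps10 (chr17:27635230-27635259, − strand): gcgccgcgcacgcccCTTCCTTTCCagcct
Rpl31 (chr1:39367836-39367865, + strand): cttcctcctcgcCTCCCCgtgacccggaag
Rplp0 (chr5:115559452-115559481, + strand): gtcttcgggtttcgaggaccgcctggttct
Rps28 (chr17:33824548-33824577, − strand): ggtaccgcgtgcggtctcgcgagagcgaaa
Rpl39l (chr16:10170213-10170242, + strand): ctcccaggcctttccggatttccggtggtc
Rpl10l (chr12:66284387-66284416, − strand): tttggcctccattttgcggctggcggtggg

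In Rpl15, Rps18, Rps6, Rps27, Rpl14 and Rps10 the annotated start was itself a cytosine that opened such a run, and in Rpl31 the nearest cytosine that did so lay 3 bases before it. In each of these genes the pyrimidines also reached farther upstream. In Rplp0, Rps28, Rpl39l and Rpl10l no cytosine within 5 bases of the start opened such a run, although in Rpl39l a run that opened farther upstream ended directly before the start. Such a run at the start was present in 14 of the 73 promoters of ribosomal protein genes (19.2%) and in 823 of all 32851 promoters (2.51%). Within 5 bases of the start the numbers were 31 of 73 (42.5%) and 6027 of 32851 (18.3%). Of the 75 promoters of mitochondrial ribosomal proteins, which are part of another ribosome, 0 had the run at the start and 17 (22.7%) had it within 5 bases. The large and the small subunit were alike in this respect, with 17.8% and 21.4% of promoters carrying the run at the start. A single annotated start can lie a few bases from the start most used, so that a missing run in this window says nothing about the mRNA in these cells.

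The 83 genes lay on 19 chromosomes, with 14 on chromosome 7 and 4 on chromosome X. Their representative transcripts had a median length of 775 bases against 2537 for all tested genes, and a median GC content of 51.9% against 50.2%. snoRNAs were annotated inside 29 of the genes (56 snoRNAs). In GENCODE vM21, 298 pseudogenes were named after 60 of the 83 genes. The median gene shared 38.1% of the 100-base windows of its transcript with transcripts of other genes, 34 genes shared more than 50%, and 10 genes shared none, among them Rpl39l, Rpl10l, Rpl3l and Rps27l. How reads that match several genes were treated is not stated, so the counts of the 34 genes, Rps2 and Rps18 among them, are uncertain by the reads they exchange with their copies.

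In control, most of these genes had similar levels per length, and a few lay far lower. The levels of other genes were not computed on this scale. Expressed as CPM (counts per 1000000 counts of the library, scaled with TMM factors) per kb of transcript, the median over the 83 genes was 1033, and 64 of the 83 lay within 2-fold of it. Rps2 was the highest at 3390 ± 424 CPM per kb (SD, n = 2 in this paragraph), followed by Rplp1 of the stalk (2263 ± 48.0), Rps18 (2230 ± 179), Rps12 (1866 ± 100.1) and Rpl4 (1790 ± 154). Of the 82 pairs of neighbours in the order of levels, 62 overlapped over the control libraries, so that most positions in the middle of the order cannot be told apart. The Spearman correlation across genes between this level and the share of windows found in other genes was 0.20, given as a description, since both depend on the annotation.

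**Figure D1:**
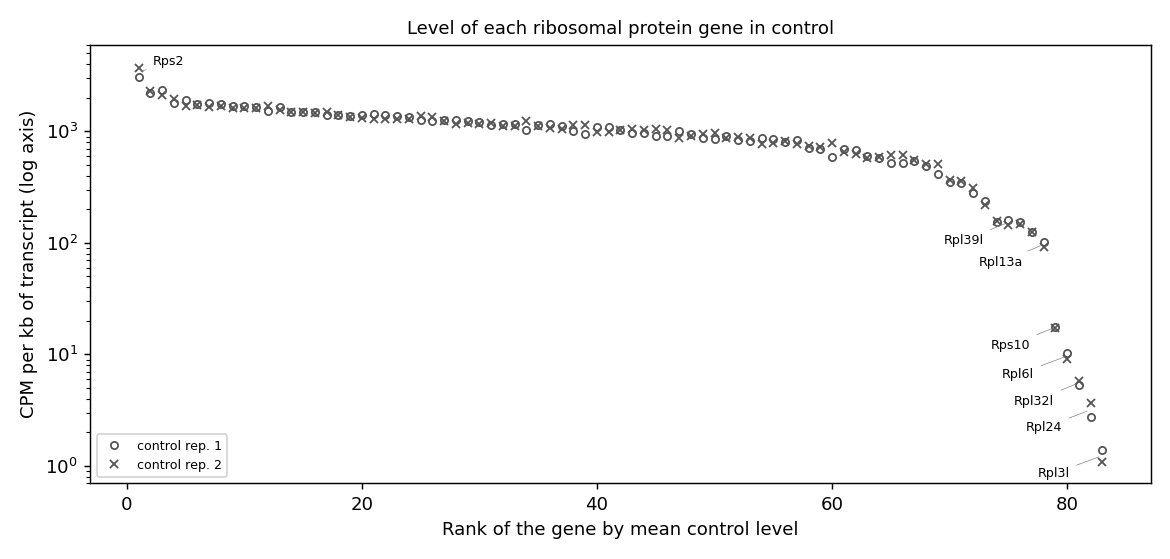
Level of the 83 ribosomal protein genes in the 2 control libraries, as CPM per kb of the representative transcript on a log axis, ordered by the mean, with 1 marker for each library. Of the 83 genes, 64 lie within 2-fold of the median of 1033, Rps2 is the highest, and 5 genes lie below 20 at the lower end.

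The 5 lowest genes stood apart from the rest. They were Rps10 (17.5 ± 0.15 CPM per kb), the pseudogenes Rpl6l (9.68 ± 0.76) and Rpl32l (5.55 ± 0.27), Rpl24 (3.19 ± 0.63) and Rpl3l (1.24 ± 0.22), the paralog of Rpl3 known from striated muscle. Rps10 and Rpl24 encode core proteins of the small and the large subunit, respectively. In the annotation, 47.0% of the exon bases of Rpl24 also belong to the gene Gm28037 on the same strand, and 20.6% of those of Rps10 to the readthrough gene RPS10-NUDT3. The next lowest was Rpl13a at 97.0 CPM per kb, with 35.4% of its exon bases in other genes on its own strand, such as Gm45713. These 3 overlapping genes held 0 counts over the 8 libraries. The part of these overlaps in the low counts was not tested, and a comparison between groups in Rpl24, Rpl3l and Rpl32l rests on fewer than 300 counts over all 8 libraries. The lengths of Rps15a (5130 bases) and Rps20 (3706 bases) are those of long annotated transcripts, so that their levels per kb of 124 and 228 would be higher for a shorter transcript.

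The targeted mRNAs were examined as a check of the labels. Sox2 stood at 320 and 284 CPM in Sox2-KD against 412 and 530 in control, and Cdk9 at 73.1 and 53.2 CPM in Cdk9-KD against 109 and 129. Hnrnpk stood at 697 and 1144 CPM in the hnRNPK-labelled libraries against 1094 and 1131 in control, and was thus lower in replicate 1 only. Every direction drawn from that group below rests on libraries of which 1 shows the knockdown. ESC markers were expressed in all libraries, with Pou5f1, which encodes OCT4, at 10629 counts or more.

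The libraries differed in how much of their counts these genes took. In control the share was 6.97% in replicate 1 and 6.84% in replicate 2. In Sox2-KD it was 6.01% and 6.04%, below both control libraries. In Cdk9-KD it was 7.55% in replicate 1 and 5.98% in replicate 2, the highest and the lowest share of all 8 libraries. In the hnRNPK-labelled libraries it was 6.20% and 6.82%, both below control, with replicate 2 close to it. The 95% Wilson intervals, which cover counting error only, were no wider than from 7.54% to 7.57% around the highest share, so that the spread between libraries was far larger than counting error. Two-sided exact permutation tests gave p = 0.333 for Sox2-KD against control (a difference of −0.88 percentage points), p = 1 for Cdk9-KD (−0.14) and p = 0.333 for the hnRNPK-labelled libraries (−0.40). A comparison of 2 against 2 libraries cannot give a p below 0.333.

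**Figure D2:**
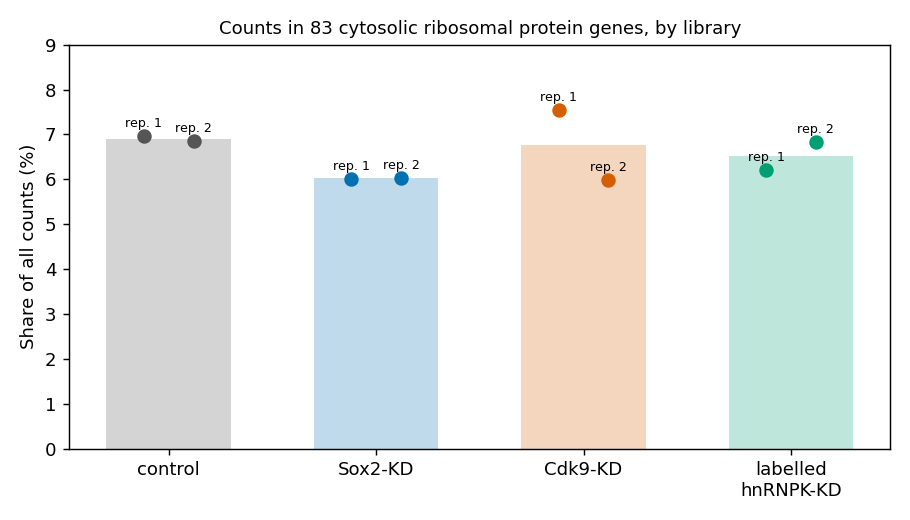
Share of all counts that fell in the 83 ribosomal protein genes, in percent, with a point for each library and a bar for the mean of each group. The Sox2-KD libraries lie together at 6.01% and 6.04%, while the 2 Cdk9-KD libraries lie at 7.55% and 5.98%.

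The spread between duplicates was thus unequal among the groups. The Sox2-KD duplicates were nearly the same in these genes, and the Cdk9-KD duplicates were the farthest apart. For the ribosomal protein genes, the chi-square statistic per gene between the duplicates was 18.9 in Sox2-KD and 65.6 in control. It was 113 in the hnRNPK-labelled libraries and 432 in Cdk9-KD. For all tested genes it lay between 16.4 and 28.9. At the same relative difference this statistic grows with the count of a gene. It therefore cannot show whether the ribosomal protein genes, with their high counts, varied more than other genes. The share of mitochondrial transcripts ranged from 2.49% to 3.11% over the libraries. The ratio of small to large subunit counts varied little, from 0.78 in control replicate 1 to 0.82 in Cdk9-KD replicate 1, so that both subunits moved together.

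The genes moved together over the 8 libraries. The median Pearson r between 2 of the 83 genes was 0.74 over the 8 libraries, and 2632 of the 3403 pairs (77.3%) had an r above 0.5. This is a description, since the points share their library and its scaling. The least alike to the mean of the 83 genes were Rpl3l (r = −0.17), Rpl39l (0.15) and Rpl24 (0.19), of which Rpl3l and Rpl24 have few counts and Rpl39l has many. Among 5970 other genes with an average log2 CPM above 5, the 5 most like that mean were Gm8730 (r = 0.984), Fcf1 (0.983), Snrpd2 (0.977), Gm9625 (0.967) and Cst3 (0.958). Gm8730 and Gm9625 are processed pseudogenes that share windows with Rplp0 (79 windows for Gm8730), so that their counts and those of Rplp0 may hold the same reads. In Gm8730 the control libraries held 548 and 522 CPM, the Sox2-KD libraries 429 and 412, the Cdk9-KD libraries 585 and 432 and the hnRNPK-labelled libraries 468 and 547.

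**Figure D3:**
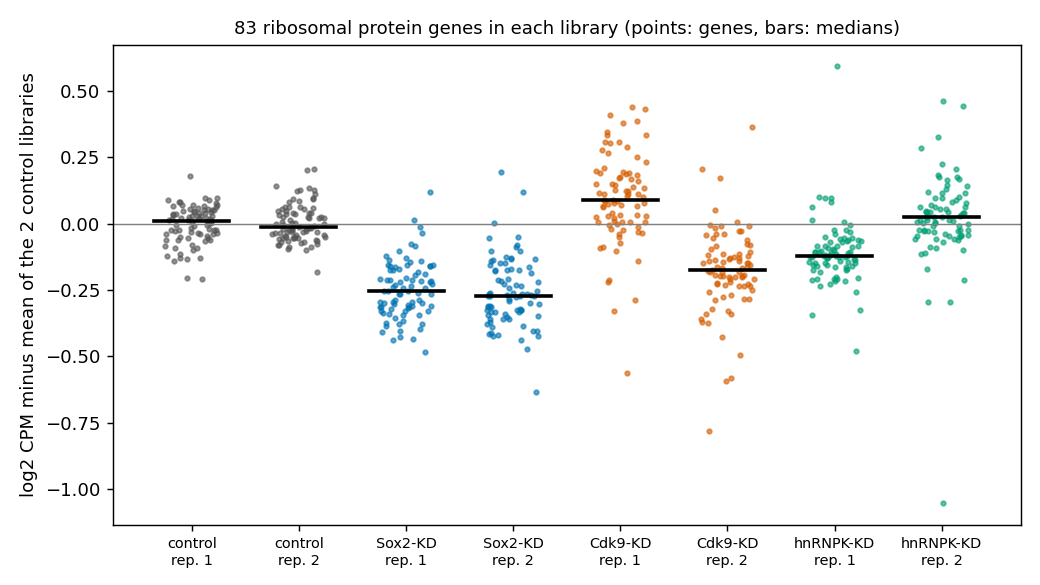
Difference of each of the 83 ribosomal protein genes from the mean of the 2 control libraries, on the log2 CPM scale, in each library (points: genes, bars: medians). Both Sox2-KD medians lie near −0.26, whereas the Cdk9-KD medians are 0.09 and −0.18 and those of the hnRNPK-labelled libraries −0.12 and 0.02.

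The first comparison asks whether these genes were expressed differently in Sox2-KD, in which Sox2 mRNA was lowered but not lost. In Sox2-KD nearly the whole group lay below control by a small amount. The median log2 fold change (log2FC) over the 83 genes was −0.26, which corresponds to 83.4% of the control level, against 0.02 over all 16504 tested genes. The log2FC was below 0 in 81 of the 83 genes, whereas it was below 0 in 48.2% of all tested genes. The range was narrow, from −0.40 in Rpl14 to 0.06 in Rps28. Since the genes moved together over the libraries, the 81 genes below 0 are not independent observations. In replicates 1 and 2 of Sox2-KD, 78 and 75 genes lay below both control libraries. The numbers were 12 and 66 in Cdk9-KD and 68 and 19 in the hnRNPK-labelled libraries. For single libraries the share over all tested genes was not computed, so that these counts only describe the libraries.

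In the single genes these differences did not pass the test. A gene was called at an adjusted p under 0.05 (edgeR quasi-likelihood test, Benjamini-Hochberg over all tested genes) together with a log2FC beyond 0.6 in either direction. With edgeR 0 of the 83 genes were called, whereas 4.32% of all tested genes were called, and DESeq2 also called 0, beside 6.23% of all tested genes. An unadjusted p under 0.05 with a lower level was found for 21 of the 83 genes (25.3%), against 8.25% of all tested genes, and with a higher level for 0, against 11.0%. Scaling with library totals left 4 genes of 83 below that p, whereas the fit of only the 4 compared libraries had 37 and the fit without a filter 33. Leaving out 1 library left 5 (without Sox2-KD replicate 1), 0 (without Sox2-KD replicate 2), 8 (without control replicate 1) or 9 (without control replicate 2). In 72 of the 83 genes the Sox2-KD values were both under the 2 control values, against 25.2% of all tested genes, and in 0 genes both were over them, against 28.2%. The smallest adjusted p of the 83 was 0.135, in Rpl35, which is named after its value was seen.

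Among the large subunit genes, the median log2FC was −0.29 and 50 of 51 were below 0. Rpl14, whose start carries the TOP run shown above, stood at 959 and 1156 CPM in control and at 795 and 810 CPM in Sox2-KD (log2FC −0.40 ± 0.15 (SE), adjusted p = 0.159 by edgeR). Rplp0, the base of the stalk that recruits the elongation factors and a gene without such a run at its annotated start, stood at 1593 and 1522 CPM in control and at 1259 and 1124 CPM in Sox2-KD (log2FC −0.39 ± 0.15, adjusted p = 0.188 by edgeR). In both genes the groups did not overlap.

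Rpl31 stood at 795 and 741 CPM in control, 568 and 598 in Sox2-KD, 938 and 708 in Cdk9-KD and 711 and 780 in the hnRNPK-labelled libraries. The Sox2-KD libraries were thus the 2 lowest of the 8 (log2FC −0.40 ± 0.16, adjusted p = 0.199 by edgeR). With offsets for transcript length and GC content its adjusted p was 0.0439 by edgeR, and its log2FC of −0.46 remained short of the fold limit. On the opposite strand, 25.3% of its exon bases overlap Tbc1d8. Rpl36a (414 and 382 CPM in control, 305 and 299 in Sox2-KD) and Rpl12 (1767 and 1604 CPM in control, 1279 and 1287 in Sox2-KD) completed the 5 lowest log2FC values, at −0.40 ± 0.15 and −0.39 ± 0.14.

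Rpl5 and Rpl11, whose proteins form a particle with the 5S ribosomal RNA that can bind MDM2, stood in Sox2-KD at 78.7% and 84.9% of control (log2FC −0.35 ± 0.13 and −0.24 ± 0.15). For Rpl3 and Rpl10, whose proteins reach towards the peptidyl transferase centre, the Sox2-KD level was 79.7% and 84.2% of control. Rpl22 and Rpl39 stood at 79.6% and 78.8%. Over these 6 genes the adjusted p by edgeR lay between 0.178 and 0.418, and none was called.

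Among the small subunit genes, the median log2FC was −0.21 and 31 of 32 were below 0. Rpsa, also known as the laminin receptor, stood at 2661 and 2578 CPM in control and at 2145 and 2089 CPM in Sox2-KD (log2FC −0.31 ± 0.15, adjusted p = 0.318 by edgeR). Rps4x stood at 79.3% of control. Rps6, the substrate of the S6 kinases, showed less of a difference, with 1225 and 1220 CPM in control and 1084 and 1177 CPM in Sox2-KD (log2FC −0.11 ± 0.15). Rps19, the gene most often mutated in Diamond-Blackfan anaemia, stood at 90.1% of control (log2FC −0.15 ± 0.15).

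Among the genes with the highest log2FC in Sox2-KD were Rps28 (0.06 ± 0.17), Rpl41 (0.02 ± 0.16), Rps10 (−0.05 ± 0.26) and Rps27 (−0.10 ± 0.18). In Rps28, at 369 and 391 CPM in control and 412 and 380 CPM in Sox2-KD, the groups overlapped. Rpl41 encodes the smallest protein of the ribosome. These 4 genes differed from control by less than their standard errors.

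**Figure D4:**
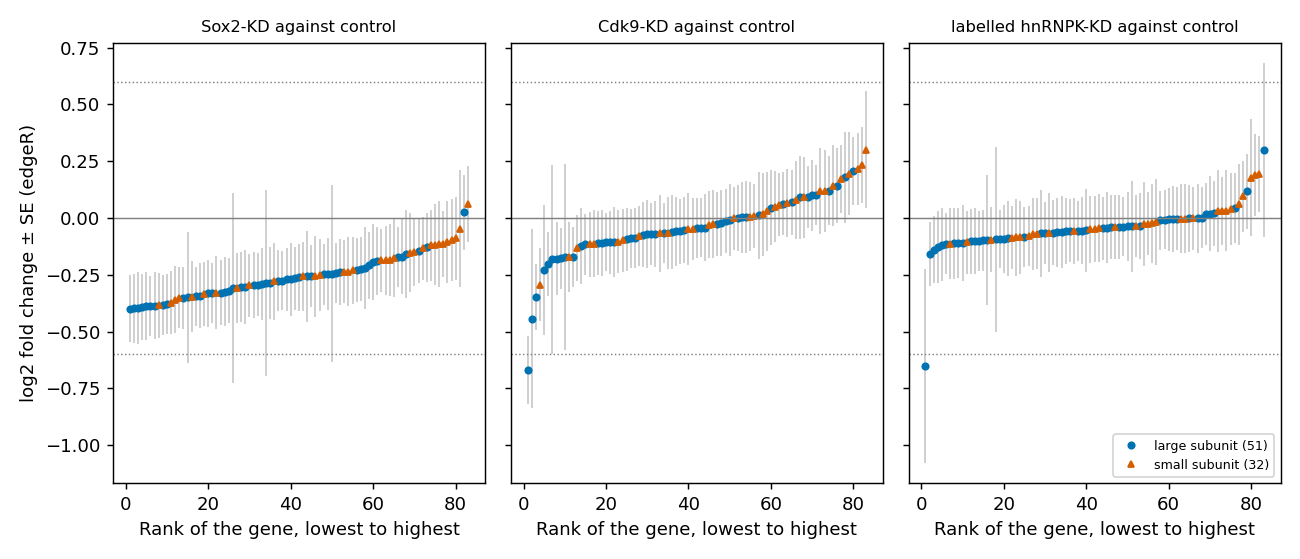
log2FC of the 83 ribosomal protein genes against control in each knockdown, ordered from the lowest to the highest in each panel, with bars for ± 1 SE of the edgeR fit and dotted lines at the fold limit of 0.6. In Sox2-KD nearly all points lie below 0 and none reaches the limit, while in the other groups the points lie around 0 and Rpl39l (Cdk9-KD) and Rpl3l (labelled hnRNPK-KD) lie beyond it without being called.

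In subsets formed by the features described above, the median log2FC in Sox2-KD lay between −0.34 and −0.21. The median log2FC was −0.27 over the 14 genes with a TOP run at the RefSeq start and −0.27 over the 47 other genes with a RefSeq promoter. It was −0.26 over the 29 genes with a snoRNA inside and −0.27 over the 54 without. It was −0.29 over the 10 genes that share no window with another gene and −0.25 over the 34 that share more than 50% of theirs. The 4 genes on chromosome X had a median of −0.34 and the 14 on chromosome 7 one of −0.21. These subsets were formed after the values were known and were not tested.

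The Sox2-KD libraries also differed from control in markers of other cell types. Of all 16504 tested genes, 434 were called higher in Sox2-KD and 279 lower. Of the 7 trophectoderm markers tested, 5 were called higher and 2 had a log2FC below 0, with 0 called lower. The latter were Cdx2, at 111 and 109 counts against 351 and 613 in control, and Tfap2c, at 523 and 570 counts against 771 and 751. The summed level of the list was 188 and 320 CPM against 89.2 and 101 CPM in control, and Krt8 and Krt18 held most of it in Sox2-KD. Of the 6 primitive endoderm markers tested, 3 were called higher and 1 had a log2FC below 0. Their summed level was 396 and 531 CPM against 134 and 183. Sparc held most of it in both groups, at 6434 and 8223 counts in Sox2-KD and 2309 and 3105 in control. Of the 8 ESC markers, 7 had a log2FC below 0, beside 48.2% of all tested genes, with a median of −0.22 and 0 called. Their summed level was 5074 and 5683 CPM against 6520 and 5701. The 5 fibroblast markers tested summed to between 2.54 and 6.53 CPM over all libraries. Lum, which was tested, and Col3a1, Postn and Dcn, which the filter on low counts removed, held 0 or 1 count in control. In Sox2-KD 1 of the 5 was called higher and 3 had a log2FC below 0, among them Col1a2, at 4 and 1 counts against 32 and 24 in control, with 0 called lower. Such differences were not confined to Sox2-KD. In Cdk9-KD 1 of the 7 trophectoderm markers was called higher and 1 lower, beside 0.139% of all tested genes, with 0 called in the other lists. In the hnRNPK-labelled libraries 0 markers were called, as were 0.0% of all tested genes. The part of other cell types in the lower level of the ribosomal protein genes in Sox2-KD was not tested. In bulk RNA fewer cells of a type and less RNA per cell cannot be told apart.

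The comparison of Cdk9-KD with control, which lowers a kinase of transcription elongation, gave no common direction. The median log2FC over the 83 genes was −0.04 against 0.02 over all tested genes, and 51 genes were below 0, beside 47.6% of all tested genes. The 2 libraries went apart. In replicate 1, 52 genes lay above both control libraries and 12 below both, whereas in replicate 2, 66 genes lay below both and 4 above. No share over all tested genes was computed for single libraries. Without replicate 1 the median was −0.21, and without replicate 2 it was 0.09, so that the direction depended on the library. Cdk9 itself was at 73.1 CPM in replicate 1 and 53.2 CPM in replicate 2, and the part of this in the split was not tested.

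With edgeR 0 of the 83 genes were called in Cdk9-KD, beside 0.139% of all tested genes, and DESeq2 and the likelihood ratio test of edgeR each called 1, Rpl39l, beside 1.35% and 1.69% of all tested genes. At an unadjusted p under 0.05, 2 genes were lower (Rpl39l and Rpl10l) against 4.93% of all tested genes, and 0 were higher, against 5.49%. Both libraries lay below both control libraries in 11 of the 83 genes, against 18.0% of all tested genes, and above both in 4, against 21.2%. The large subunit held 10 of the 11, which is 19.6% of its 51 genes and near the share of all tested genes. The small subunit held 1, or 3.1% of its 32 genes. The median log2FC was −0.06 over the large and 0.01 over the small subunit genes.

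Rpl39l is the paralog of Rpl39, known from the testis and from ribosomes of male germ cells, and like Rpl39 it encodes a short protein at the exit tunnel. Its coding sequence is 153 bases long, as is that of Rpl39. In control the libraries held 129 and 117 CPM (2292 and 2044 counts), in Sox2-KD 106 and 110, in Cdk9-KD 83.3 and 71.6 (1426 and 1210 counts) and in the hnRNPK-labelled libraries 107 and 124. The 2 Cdk9-KD libraries were thus the lowest of the 8, and they did not overlap with any other group. Since the Rpl39l transcript shares no 100-base window with another gene, its counts do not depend on reads shared with Rpl39 at that length.

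Rpl39l in Cdk9-KD stood at 62.9% of control (log2FC −0.67 ± 0.15, unadjusted p = 0.00101, adjusted p = 0.155 by edgeR). The adjusted p was 0.0113 by DESeq2 and 0.0143 by the likelihood ratio test of edgeR, and over all settings that kept the 8 libraries or the compared ones it lay between 0.0113 and 0.231. Leaving out 1 library gave a log2FC from −0.81 to −0.56, below 0 each time, with an adjusted p from 0.132 to 0.436 by edgeR. In the direct contrasts, Rpl39l was lower in Cdk9-KD than in the hnRNPK-labelled libraries by a log2FC of −0.58 ± 0.15 (adjusted p = 0.515 by edgeR), and higher in Sox2-KD than in Cdk9-KD by 0.48 ± 0.15 (adjusted p = 0.0813 by edgeR). Rpl39 itself stood at 320 and 380 CPM in control and at 349 and 324 CPM in Cdk9-KD (log2FC −0.06 ± 0.14).

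**Figure D5:**
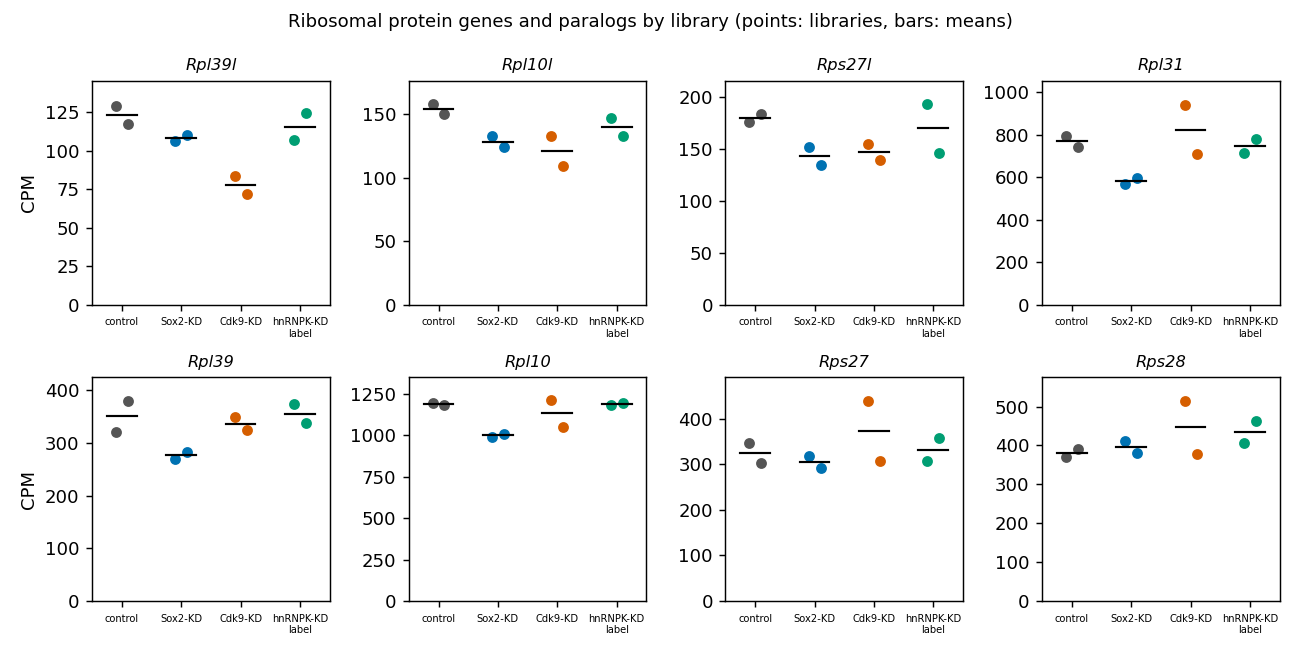
CPM of the paralogs Rpl39l, Rpl10l and Rps27l above their partners Rpl39, Rpl10 and Rps27, and of Rpl31 and Rps28, in each library (points) with the mean of each group (bars). Rpl39l is lowest in Cdk9-KD, at 83.3 and 71.6 CPM against 129 and 117 in control, while Rpl31 is lowest in Sox2-KD, at 568 and 598 CPM.

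The other paralogs and the lowest genes of this comparison were less clear. Rpl10l, a retrogene of the X-linked Rpl10 known for its role in meiosis, stood at 158 and 150 CPM in control and at 133 and 109 CPM in Cdk9-KD (log2FC −0.35 ± 0.15, adjusted p = 0.45 by edgeR). Rpl10 stood at 1193 and 1183 CPM in control and at 1216 and 1052 CPM in Cdk9-KD (log2FC −0.07 ± 0.13). Rps27l, a p53 target, stood at 176 and 184 CPM in control and at 154 and 139 CPM in Cdk9-KD (log2FC −0.29 ± 0.16, adjusted p = 0.566 by edgeR). In Rpl10l and Rps27l the groups did not overlap. Over the 5 paralogs the median log2FC was −0.29, with 4 below 0, and over the 76 genes that are neither paralogs nor pseudogenes it was −0.04. Rps4l stood at 267 and 291 CPM in control and 362 and 243 CPM in Cdk9-KD, a split like that of the whole group. Rpl24 (−0.44 ± 0.39) and Rpl6l (−0.23 ± 0.29) had few counts.

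At the upper end of this comparison were, among others, Rps10 (0.30 ± 0.26), Rps28 (0.23 ± 0.17), Rps20 (0.22 ± 0.16) and Rps27 (0.19 ± 0.18). In Rps28 the Cdk9-KD libraries held 516 and 378 CPM against 369 and 391 in control, so that the higher mean came from replicate 1. Rps20 (1124 and 842 CPM against 885 and 808) and Rps27 (439 and 307 CPM against 348 and 304) had the same shape.

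In the hnRNPK-labelled libraries, the genes stayed close to control. The median log2FC was −0.05 against 0.02 over all tested genes, and 67 of the 83 genes were below 0, beside 47.6% of all tested genes. With edgeR 0 of the 83 genes were called, as were 0.0% of all tested genes, and DESeq2 called 0 of the 83, beside 0.503% of all tested genes. At an unadjusted p under 0.05 there were 0 genes in either direction, against 4.55% lower and 3.48% higher over all tested genes. Both libraries lay below both control libraries in 15 of the 83 genes, against 18.7% of all tested genes, and above both in 1, against 20.4%. In replicate 1, in which Hnrnpk was lower, 68 genes lay below both control libraries and 4 above. In replicate 2, 19 lay below and 30 above. No share over all tested genes was computed for single libraries. Without replicate 1 the median was 0.01, and without replicate 2 it was −0.15.

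The lowest log2FC in this group belonged to Rpl3l (−0.65 ± 0.43), which held between 0.81 and 1.9 CPM over all libraries. It was followed by Rpl3 (−0.16 ± 0.14), Rpl10l (−0.14 ± 0.15), Rpl36 (−0.13 ± 0.16) and Rpl19 (−0.12 ± 0.16). Rpl3, which encodes a protein near the catalytic centre, stood at 1468 and 1331 CPM in control and at 1271 and 1240 CPM in the hnRNPK-labelled libraries, without overlap. At the other end were Rpl24 (0.30 ± 0.38), Rps28 (0.19 ± 0.17), Rps26 (0.19 ± 0.18), Rps10 (0.18 ± 0.26) and Rpl41 (0.12 ± 0.16). In Rps26 replicate 2 at 1029 CPM was the highest of all 8 libraries and replicate 1 at 698 CPM lay below control (786 and 728 CPM). None of the 83 genes passed the test in this comparison, and with Hnrnpk at 1144 CPM in replicate 2 the values describe the labelled libraries.

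The knockdowns were also compared directly, since a difference that passes in one and not in another does not show that they differ. These comparisons share libraries with those above. In the 83 genes the median log2FC was −0.21 for Sox2-KD against the hnRNPK-labelled libraries (82 below 0) and −0.22 for Sox2-KD against Cdk9-KD (80 below 0), beside −0.01 and −0.02 over all tested genes, of which 51.0% and 52.4% were below 0. Single libraries moved both medians. Against the hnRNPK-labelled libraries the median was −0.12 (66 below 0) without hnRNPK-KD replicate 2. With library totals it was −0.10 (72 below 0), where the median over all tested genes was 0.10. Against Cdk9-KD it was −0.07 (57 below 0) without Cdk9-KD replicate 1 and −0.37 without Cdk9-KD replicate 2. With edgeR 0 of the 83 genes were called in either, beside 5.90% and 7.33% of all tested genes, and DESeq2 called 0, beside 7.73% and 8.68%. At an unadjusted p under 0.05 they held 10 and 13 lower genes, against 8.38% and 9.30% of all tested genes. In either direction that number lay between 0 and 19 against the hnRNPK-labelled libraries over the other settings, and between 1 (without Cdk9-KD replicate 1) and 46 (without Cdk9-KD replicate 2) against Cdk9-KD. In 62 and 51 genes both Sox2-KD libraries lay below both libraries of the other group, against 27.3% and 25.1% of all tested genes. In Sox2-KD against Cdk9-KD, Rpl31 had the lowest log2FC (−0.50 ± 0.16, adjusted p = 0.0873 by edgeR), and it was called without Cdk9-KD replicate 2 (log2FC −0.69, adjusted p = 0.0382 by edgeR), beside 3.13% of the genes tested in that fit. Between Cdk9-KD and the hnRNPK-labelled libraries, the median was 0.00 (36 below 0, beside 48.6% of all tested genes), and 0 of the 83 genes were called by edgeR or DESeq2, beside 0.0% and 0.339% of all tested genes, with 1 gene (Rpl39l) lower at an unadjusted p under 0.05 against 2.29% of all tested genes. In 5 genes both Cdk9-KD libraries lay below both of the other group, against 14.3% of all tested genes.

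Other genes of the translation machinery were examined beside the ribosomal protein genes. The lists are to be read beside all tested genes in Sox2-KD, of which 48.2% were below 0 and 4.32% were called. At an unadjusted p under 0.05 by edgeR, 8.25% of all tested genes were lower. In a list of few genes, 0 called is therefore near that share. The 7 ribosomal components that the pattern leaves out were all below 0 in Sox2-KD, with a median log2FC of −0.12 and 0 called. Among them, Rps3a1 stood at −0.24 ± 0.13, Rpl7l1 at −0.30 ± 0.14 and Rack1, the scaffold on the small subunit, at −0.16 ± 0.16. A further list held 15 translation factors and other genes known for TOP mRNAs. Of 10 RefSeq promoters found for 9 of them, 1 had the run at the start and 3 had it within 5 bases. In Sox2-KD all 15 genes were below 0 (median −0.28, 0 called, 4 lower at an unadjusted p under 0.05). The elongation factor Eef1a1 stood at −0.08 ± 0.13 and the nucleolar chaperone Npm1 at −0.52 ± 0.16 (adjusted p = 0.0956 by edgeR). Their medians in the other comparisons with control were 0.00 (Cdk9-KD) and 0.01 (hnRNPK-labelled).

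Of the 40 genes of ribosome biogenesis, 36 were below 0 in Sox2-KD (median −0.21, 0 called), among them the snoRNP methyltransferase Fbl (−0.36 ± 0.16) and nucleolin, Ncl (−0.38 ± 0.15). In the hnRNPK-labelled libraries this list lay on the other side of 0 from the ribosomal protein genes, with a median of 0.15 and 33 of 40 above 0, and 0 called. Of all tested genes, 47.6% were below 0 in that comparison and 0.0% were called. The difference between the lists was not tested. Of the 77 mitochondrial ribosomal protein genes tested, 65 were below 0 in Sox2-KD, with a median of −0.19 and 0 called. The 97 ribosomal protein pseudogenes tested had a median of −0.23 in the Sox2-KD comparison, −0.09 in that of Cdk9-KD and −0.10 in that of the hnRNPK-labelled libraries. In each, 0 of these pseudogenes were called, beside 4.32%, 0.139% and 0.0% of all tested genes. They may hold reads of the genes they derive from. The 22 mitochondrial transcripts tested had a median of 0.16 in Sox2-KD, with 4 below 0, on the other side of 0 from the ribosomal protein genes.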

How the data were processed

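Per the labels and the study's methods, the authors trimmed polyA RNA-seq reads with Trimmomatic, aligned them with STAR (2.7.9a in the submitters' processing notes, a later release in the study's methods) to mm10 and deposited raw counts per gene from featureCounts 2.0.1 on GENCODE vM23, neither normalized nor pooled. Whether counting used strand, and what became of reads that match several genes, is not given in the sources used here. Symbols, coordinates and transcripts came from GENCODE vM21 (GRCm38), and start sites from RefSeq (GRCm38.p6). Of the 55335 genes, 55154 had a symbol. The members, the gene lists and the settings were chosen with earlier results of these data known.

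All 8 libraries entered 1 fit of edgeR 4.0.16 (R 4.3.3) with a group term, TMM factors and filterByExpr (minimum count 10, minimum total 15). The common biological coefficient of variation was 0.186. Each knockdown was compared with control and with the other knockdowns by the quasi-likelihood test, and called where the adjusted p was under 0.05 and the log2FC beyond 0.6 in either direction, limits taken over from the study's methods. SE is the log2FC over the square root of F. Shares of counts were compared with exact permutation tests. The p-values of the fit set each difference against a spread estimated over the duplicates of all 4 groups. The independence of the duplicates is known only from the label of biological replicates.

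The genes named are those with set roles, the 5 highest and the 5 lowest by level per kb in control and by log2FC in each comparison with control, and the paralogs. A few genes that this rule takes are not reported here. Lengths per kb are those of 1 representative transcript (APPRIS principal, best support level). The alternatives were DESeq2 1.42.0, its size factors in edgeR, library totals, a fit without a filter or with 10 counts required in every library, a fit of the compared libraries alone, a block for the replicate number, edgeR's likelihood ratio test, offsets for length and GC content (splines with 5 degrees of freedom), other member lists, and leaving out each library. Figures were drawn with matplotlib 3.10.9.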

Additional observations from a re-analysis of the deposited data

How the results depend on the processing

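The median log2FC of the 83 ribosomal protein genes in Sox2-KD was −0.26. It was −0.22 with offsets for length and GC content and −0.23 with those offsets and the replicate block. It was −0.19 with library totals, −0.30 without a filter and −0.28 in a fit of the 4 compared libraries. When 1 library was left out, it lay between −0.28 and −0.26. Over all tested genes the median was 0.02 in the main fit and with either set of offsets. That median was 0.09 with library totals, 0 without a filter and −0.00081 in the fit of the 4 compared libraries. In Cdk9-KD the median of the 83 genes lay between −0.21 and 0.089 when 1 library was left out. For the hnRNPK-labelled libraries it then lay between −0.15 and 0.013. The difference in share of counts for Cdk9-KD, −0.14 percentage points, was −0.93 without Cdk9-KD replicate 1 and turned to 0.65 without Cdk9-KD replicate 2. The cause of these shifts was not tested beyond the libraries left out. Of the 83 genes, 1 (Rpl39l) was called in Cdk9-KD by DESeq2 and 1 by the likelihood ratio test, against 0 by the quasi-likelihood test. In Sox2-KD against Cdk9-KD the number called lay between 0 and 1 when 1 library was left out, with Rpl31 called without Cdk9-KD replicate 2. In the counts over all genes, 1350 were called in Sox2-KD by the likelihood ratio test against 713, and 144 to 343 with 1 library left out. In Cdk9-KD 222 were called by DESeq2 and 279 by the likelihood ratio test against 23, and for the hnRNPK-labelled libraries 83 and 87 against 0. Of the values for the group under an alternative, 9 were rated as moved, 1 as reversed and 3 as stronger. The other 158, which include the numbers called that stayed at 0, were rated the same. They kept their side of the threshold or moved by less than their spread. Some of the values above are among them. The Cdk9-KD median of 0.089 and the hnRNPK-labelled median of 0.013 changed sign, and the share difference of −0.93 grew.

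Only the numbers tie same-numbered libraries together, and the deviations of same-numbered libraries correlated between −0.22 and 0.21 over the pairs of groups in all tested genes, and between −0.08 and 0.38 in the 83 genes, the highest in Sox2-KD with Cdk9-KD. With the replicate block the medians were −0.26 (Sox2-KD), −0.05 (Cdk9-KD) and −0.05 (hnRNPK-labelled libraries), with 0 of the 83 genes called, and the block changed no call among them. With totals of at least 16709201 counts, the lowest counts were those of Rpl24, Rpl3l and Rpl32l. Rpl6l (103 to 167 counts) and Rps10 (224 to 368) had SEs of 0.29 and 0.26 in Cdk9-KD. What limits the precision of the other genes was not tested.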
